A study of Mus musculus with 8 samples.

Results

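PARP proteins transfer ADP-ribose from NAD+ onto other molecules, and Dtx3l is an E3 ubiquitin ligase that works as a partner of Parp9. 9 mouse genes were chosen by name: Parp9, Dtx3l, Parp14, Parp10, Parp11, Parp12 and Parp8, which are grouped here as interferon-related, and Parp1 and Parp2, which serve as DNA-repair members of the family. Of the 9 genes, 8 had a matched row among the 24625 rows of the deposited table, each with 1 row, and Parp8 had none. Members were taken by gene name, with earlier results of these data known.

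Most PARP proteins add a single ADP-ribose unit, whereas Parp1 and Parp2 build poly(ADP-ribose) chains at broken DNA and so call repair proteins to the site. Parp9, Parp14, Parp10, Parp11 and Parp12 are known as genes that interferons induce in many cell types, and the Parp9 and Dtx3l proteins form a complex that acts on interferon signalling and on DNA damage. No sample was treated with interferon, so the name describes what is known of the genes and not a result.

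Expression was measured in lung neutrophils of wild type (WT) mice, 6 to 12 weeks old by the labels. The left lung was instilled intratracheally with 2.3 µl per g of a suspension of Streptococcus pneumoniae (SP) or of phosphate-buffered saline (PBS), and neutrophils were collected 24 h later. Cells were captured with magnetic beads that recognise the neutrophil surface protein Ly6G, and neither group carried a transgene. Each group held 4 samples, with 1 Affymetrix Mouse Gene 1.1 ST array each, and values are on a log2 scale, on which 1 unit is a 2-fold difference. The labels number the samples without saying that each came from its own mouse. The study describes each as a sample from a mouse, with 4 per group. The p-values measure only the spread between these samples. The study examined the purity of the isolated cells by microscopy in pneumonia samples only. It also reports high Ly6G mRNA in all samples.

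Array medians lay between 6.06 and 6.20 in PBS and between 5.78 and 5.91 in SP. The mean level of the neutrophil marker list, of which 8 of 9 genes had a row, lay between 12.80 and 13.11 in the PBS samples and between 12.47 and 13.01 in SP, with Ly6g itself lacking a matched row. Of these 8 genes, 3 were lower in SP and none higher, with a median difference of -0.27. RNA of other lung cells was also measured. The ciliated epithelium list (7 of 7 genes lower in SP) lay between 9.56 and 10.32 in PBS and between 7.20 and 7.77 in SP, the alveolar type 2 list (7 of 7 lower) between 11.79 and 12.36 and between 9.69 and 11.18, and the endothelial list (5 of 7 lower) between 10.49 and 11.40 and between 9.03 and 10.12. In the monocyte and macrophage list 3 of 8 genes were higher in SP and none lower, with levels of 7.97 to 8.87 in PBS and 8.06 to 9.50 in SP. Genes were also lower in the B cell (5 of 5), club cell (4 of 5), alveolar type 1 (4 of 6) and fibroblast (2 of 6) lists, with none higher. The club cell list lay between 12.83 and 13.14 in PBS, about the level of the neutrophil list there. In SP it lay between 11.17 and 11.71. The alveolar macrophage list had 1 of 5 higher and 2 lower. The T cell list had 1 of 6 higher, the eosinophil list 1 of 4, and neither had a gene called lower. These shifts accompany every comparison of SP with PBS given here, and their part in the results was not tested. In bulk samples, fewer cells of a type and less RNA per cell cannot be told apart.

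All 6 measured interferon-related members were higher in SP, by 4.19-fold to 9.50-fold. In the main fit Parp14 differed most and Parp11 least. Parp1 fell by 1.16 on the log2 scale, and Parp2 rose 1.36-fold. All 8 measured members passed an adjusted p of 0.05 (limma, Benjamini-Hochberg over all rows), where 44.1% of all rows did so. At 2-fold, 6 members were called higher, against 6.37% of all rows, and 1 member, Parp1, was called lower, against 11.3% of all rows. The groups did not overlap in any of the 8, with SP above PBS in 7 members (27.2% of all rows) and below PBS in 1 (21.8% of all rows). The median difference of the 6 interferon-related members was 2.54 log2 units, and that of all rows was 0.10. Of all rows, 508 (2.06%) rose by at least as much as Parp11.

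**Figure D1:**
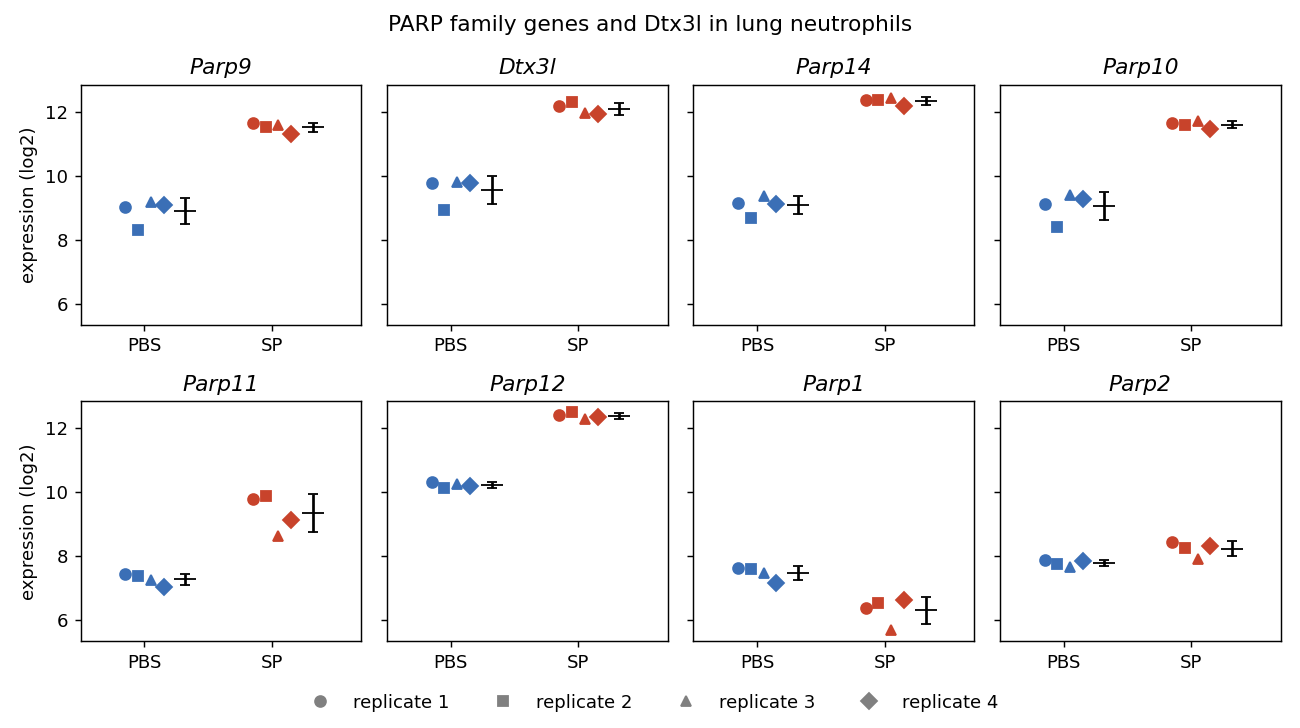
Expression (log2) of the 8 measured genes in each PBS (blue) and SP (red) sample, with 1 symbol per replicate number, the group mean as a horizontal mark and the SD as a bar (n = 4 per group). In the first 6 panels the SP samples lie well above the PBS samples; in Parp1 they lie below, and in Parp2 the groups come close, at 7.88 for the highest PBS sample and 7.91 for the lowest SP sample.

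Parp9 (NM_030253) is a PARP family member with macrodomains, which bind ADP-ribose. Its levels were 9.003, 8.29, 9.19 and 9.08 in PBS replicates 1 to 4 and 11.64, 11.51, 11.58 and 11.30 in SP replicates 1 to 4. The SP samples lay close together, and among the PBS samples replicate 2 was low. The means were 8.89 ± 0.41 (SD, n = 4) in PBS and 11.51 ± 0.15 (SD, n = 4) in SP. The difference was 2.62 log2 units (SE 0.19, 95% confidence interval 2.18 to 3.06), or 6.14-fold, with an adjusted p of 2.88e-05 by limma.

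Dtx3l (NM_001013371), the ubiquitin ligase that pairs with Parp9, had levels of 9.76, 8.91, 9.79 and 9.76 in PBS and 12.17, 12.29, 11.96 and 11.92 in SP. PBS replicate 2 was again the low sample, while the other 3 PBS samples lay within a narrow range. The difference was 2.53 log2 units (SE 0.21, 95% confidence interval 2.06 to 3.001), or 5.77-fold, with an adjusted p of 4.71e-05 by limma. Parp9 and Dtx3l thus differed between the groups by nearly the same amount.

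Parp14 (NM_001039530) is another macrodomain PARP, known as a cofactor of Stat6 in the response to interleukin-4. It stood at 9.13, 8.69, 9.37 and 9.12 in PBS and at 12.37, 12.36, 12.42 and 12.16 in SP. Every SP sample was far above every PBS sample, and the SP samples again lay close together. The difference of 3.25 log2 units (SE 0.14, 95% confidence interval 2.92 to 3.57), or 9.50-fold, had an adjusted p of 3.76e-06 by limma.

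Parp10 (NM_001163575) transfers single ADP-ribose units and carries ubiquitin-binding motifs. Its levels were 9.12, 8.40, 9.41 and 9.27 in PBS and 11.64, 11.57, 11.69 and 11.46 in SP, with PBS replicate 2 low once more. The difference was 2.54 log2 units (SE 0.20, 95% confidence interval 2.08 to 3.01), or 5.83-fold, with an adjusted p of 4.41e-05 by limma.

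Parp12 (NM_172893) has zinc fingers that bind RNA, and its samples were the least spread among the 8 measured members. It measured 10.31, 10.14, 10.26 and 10.18 in PBS and 12.41, 12.49, 12.28 and 12.33 in SP. No sample stood apart in either group. Parp12 rose by 2.16 log2 units (SE 0.078, 95% confidence interval 1.98 to 2.33), or 4.46-fold, with an adjusted p of 1.39e-06 by limma.

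Parp11 (NM_181402) has a WWE domain, a fold that binds ADP-ribose chains. It stood at 7.44, 7.38, 7.24 and 7.05 in PBS and at 9.77, 9.87, 8.63 and 9.12 in SP. Here the SP samples were spread, with replicate 3 the lowest, and still all lay above the PBS samples. Parp11 rose by 2.07 log2 units (SE 0.27, 95% confidence interval 1.46 to 2.68), or 4.19-fold, with an adjusted p of 0.00045 by limma.

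Parp1 (NM_007415), the main enzyme that makes poly(ADP-ribose) at DNA breaks, went the other way. Its levels were 7.64, 7.60, 7.47 and 7.16 in PBS and 6.39, 6.52, 5.68 and 6.64 in SP. All SP samples lay below all PBS samples, and SP replicate 3 was the lowest. The difference was -1.16 log2 units (SE 0.21, 95% confidence interval -1.64 to -0.67), or 2.23-fold lower in SP, with an adjusted p of 0.00291 by limma. The 2-fold call rested on SP replicate 3, without which the difference was -0.95 (adjusted p = 0.00103 by limma). It was also lost when arrays were centred on their medians (-0.88) and under another quantile normalization (-0.81), while the direction and the adjusted p call held.

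Parp2 (NM_009632), the closest relative of Parp1 in DNA repair, had levels of 7.88, 7.76, 7.66 and 7.85 in PBS and 8.44, 8.25, 7.91 and 8.32 in SP. The groups did not overlap, but the lowest SP sample, replicate 3, came close to the highest PBS sample. The difference was 0.45 log2 units (SE 0.12, 95% confidence interval 0.17 to 0.72), with an adjusted p of 0.0182 by limma. It was larger after the arrays were centred (0.73) and after another quantile normalization (0.76). Parp1 and Parp2 therefore moved in opposite directions under every scaling tried.

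The next question was whether the interferon-related members responded differently from the DNA-repair members. For this test the mean of Parp1 and Parp2 on an array was subtracted from each row of that array, which removes any amount that scaling adds to a whole array. All 6 responses were larger than that reference, by 2.42 (Parp11) to 3.60 (Parp14) log2 units, and 35.1% of all rows passed this test in the same direction. Parp9 exceeded the reference by 2.97 log2 units (SE 0.25, 95% confidence interval 2.44 to 3.51). Adjusted p-values by limma were 1.16e-07 at most over the 6 members. Each row of this fit carries the spread of the reference, which limma pools as if rows were independent, so these p-values are too small. The confidence intervals of this fit carry the same pooled spread. The methods' t-test, which uses each row's own spread, gave adjusted p-values between 0.000563 (Parp12) and 0.00231 (Parp10).

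**Figure D2:**
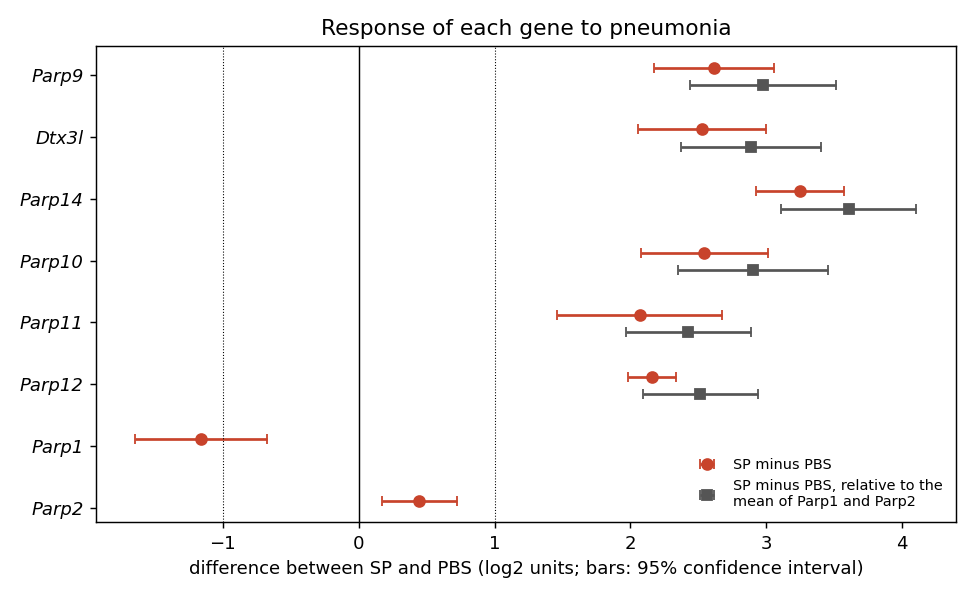
Difference between SP and PBS in log2 units for each gene (red circles) and the same difference after subtracting the mean of Parp1 and Parp2 on each array (grey squares), with 95% confidence intervals from limma (n = 4 per group). The grey intervals come from the fit in which limma pools the spread of the shared reference over rows. Dotted lines mark a 2-fold difference. The 6 interferon-related genes lie between 2.07 and 3.25 log2 units, Parp2 at 0.45 and Parp1 at -1.16.

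In the main fit the order of the responses was Parp14, Parp9, Parp10, Dtx3l, Parp12 and Parp11. Parp12 instead stood below Parp11 without SP replicate 3 (2.19 against 2.31), with array weights (2.19 against 2.43) and under another quantile normalization (1.97 against 2.31). Differences within this order were tested against Parp9, by subtracting Parp9 from every row on the same array. Parp14 rose by 0.63 log2 units more than Parp9 (95% confidence interval 0.14 to 1.12, adjusted p = 0.0135 by limma and 0.000295 by the methods' t-test), and 0.621% of all rows exceeded Parp9 in this way. That call was lost under another quantile normalization (0.60, adjusted p = 0.0562) and without PBS replicate 4 (0.58, adjusted p = 0.0588). Dtx3l and Parp10 could not be told apart from Parp9, with differences of -0.09 (95% confidence interval -0.58 to 0.40, adjusted p = 0.712 by limma) and -0.07 (-0.56 to 0.41, adjusted p = 0.754 by limma). The methods' t-test gave them adjusted p-values of 0.368 and 0.156. Each row of this fit carries the spread of Parp9, which limma pools over rows. The intervals therefore do not rest on each member's own spread alone.

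Parp12 differed from Parp9 by -0.46 log2 units (95% confidence interval -0.98 to 0.06) and Parp11 by -0.55 (-1.18 to 0.08), with adjusted p-values of 0.0816 and 0.0836 by limma. Neither passed the test, nor did they pass in the methods' t-test (adjusted p = 0.0585 and 0.202). Parp12 passed with a robust prior (adjusted p = 0.0384), and Parp11 passed without PBS replicate 3 (-0.66, 0.0365), without PBS replicate 4 (-0.69, 0.0422) and without SP replicate 2 (-0.72, 0.0326). The difference of Parp11 shrank without SP replicate 3 (-0.29, adjusted p = 0.347 by limma) and with array weights (-0.09, 0.674). It was also smaller under another quantile normalization (-0.27, 0.393) and without PBS replicate 2 and SP replicate 3 together (-0.05, 0.771). Parp2 and Parp1 responded less than Parp9, by -2.17 and -3.78 log2 units, as did 97.9% of all rows. The remaining neighbours in the order were not compared with each other.

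Within the groups, 4 members were low in PBS replicate 2 and 3 others were low in SP replicate 3, while Parp12 stood close to its group in both samples. PBS replicate 2 lay below the mean of the other PBS samples by a difference of -0.80 in Parp9, -0.86 in Dtx3l, -0.52 in Parp14 and -0.87 in Parp10. The same sample differed by only -0.11 in Parp12, -0.04 in Parp2, 0.13 in Parp11 and 0.17 in Parp1. It was the lowest PBS sample in 36.3% of all rows and in 11 of the 12 genes of interferon receptors and signalling, whose median deviation was -0.58. On this array the monocyte and macrophage list was lowest among PBS samples (7.97 against 8.49 to 8.87), the neutrophil list was also lowest (12.80 against 12.94 to 13.11), and the ciliated epithelium, alveolar type 2 and endothelial lists were highest. The part of these in the low values was not tested.

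SP replicate 3 lay below the mean of the other SP samples by a difference of -0.96 in Parp11, -0.83 in Parp1 and -0.43 in Parp2. It lay within 0.17 of that mean in Parp9, Dtx3l, Parp14, Parp10 and Parp12, and it was the lowest SP sample in 33.9% of all rows. Its monocyte and macrophage list (8.06 against 9.14 to 9.50), alveolar type 2 list (9.69) and endothelial list (9.03) were the lowest in SP. So were its ciliated epithelium, club cell, alveolar type 1, fibroblast, B cell and alveolar macrophage lists. Its T cell and eosinophil lists were not the lowest, and its neutrophil list (13.01) was the highest. The part of these lists in the low values was not tested. With PBS replicate 2 and SP replicate 3 both left out, the differences were 2.40 in Parp9, 2.36 in Dtx3l, 3.09 in Parp14, 2.29 in Parp10, 2.34 in Parp11 and 2.16 in Parp12. Parp1 then differed by -0.91 and Parp2 by 0.54, and in limma the highest adjusted p among the 8 was 0.00363.

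**Figure D3:**
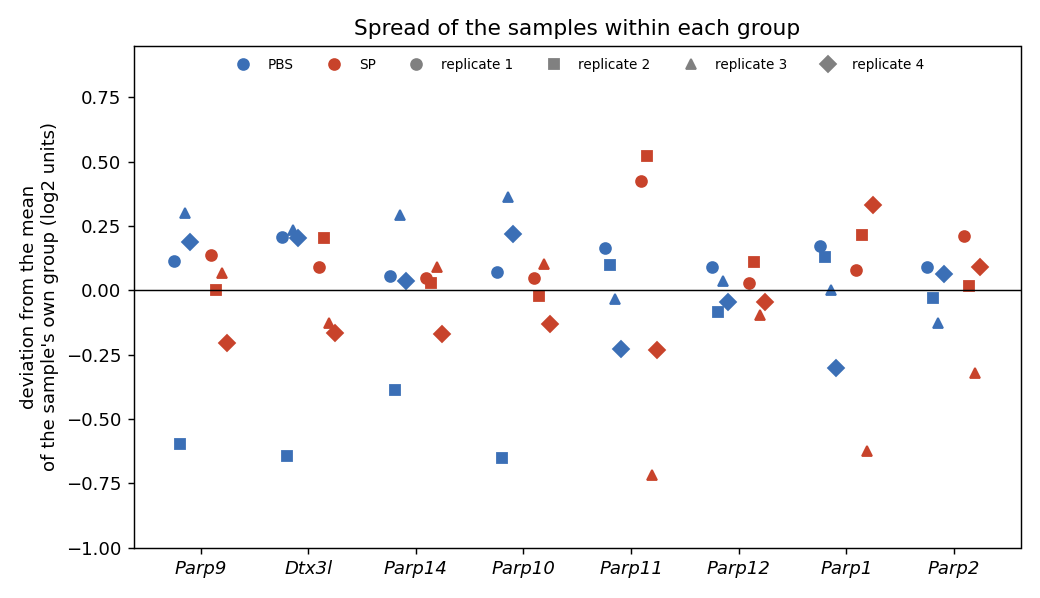
Deviation of each sample from the mean of its own group (log2 units) for the 8 genes, with PBS in blue, SP in red and 1 symbol per replicate number. The blue squares (PBS replicate 2) lie far below 0 in Parp9, Dtx3l, Parp14 and Parp10, and the red triangles (SP replicate 3) lie far below 0 in Parp11, Parp1 and Parp2.

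Pearson correlations over the 8 arrays come from these same values, so they are no separate support for the grouping above. They are given without a p-value, since all 8 points share the difference between the groups and the same arrays. Parp9 correlated with Parp10 at 0.999, with Dtx3l at 0.996, with Parp14 at 0.995 and with Parp12 at 0.984. After each group's mean was subtracted, the coefficients were 0.981, 0.921, 0.96 and 0.451. Against the mean of Parp9, Dtx3l and Parp14, Parp11 and Parp2 also reached 0.93 and 0.815 over the 8 arrays. Their centred values gave 0.05 and 0.01. Without PBS replicate 2 the centred coefficients with Parp9 were 0.865 for Parp10, 0.462 for Dtx3l, 0.873 for Parp14 and 0.07 for Parp12, so those of Dtx3l and Parp12 rested on that sample.

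Among 10934 named rows of at least median level, the genes most like the mean of Parp9, Dtx3l and Parp14 over the 8 arrays were C9orf72, Tnfrsf26, Ube2l6, Ifit3 and Stat2, each with a coefficient of 0.999. Ube2l6 is the conjugating enzyme for the ubiquitin-like protein Isg15, Ifit3 is an antiviral protein, and Stat2 is the transcription factor of type I interferon signalling. Stat2 rose by 2.79 log2 units and Ube2l6 by 3.14. After subtracting group means, the most similar genes were Snx10 (0.99), Gm1966 (0.986), Irf1 (0.986), Samhd1 (0.981) and Ninj1 (0.981). Parp9, Dtx3l and Parp14 were all low in PBS replicate 2, and these coefficients were not computed without that sample. A coefficient as high as that of Parp12, at 0.99 over the arrays, was reached by 1.27% of these rows.

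Parp14, Dtx3l and Parp9 lie next to each other on mouse chromosome 16, and the gene models of Dtx3l and Parp9 overlap at their starts. Between Parp14 and Dtx3l the RefSeq gene table lists 2 genes without a measured row. The nearest measured genes outside the cluster moved far less. Hspbap1, beside Parp14, rose by 0.68 log2 units (SE 0.20, adjusted p = 0.024 by limma), and this call was lost without PBS replicate 1 or 2 or SP replicate 1 or 2 (adjusted p from 0.0539 to 0.0616). Kpna1, past Parp9 with 1 gene between, differed by 0.17 (SE 0.08, adjusted p = 0.135 by limma) and passed when arrays were centred (0.45, adjusted p = 0.00651). The array probes cannot assign signal where overlapping genes share sequence, and which probes make up each row is not given in the sources used here.

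**Figure D4:**
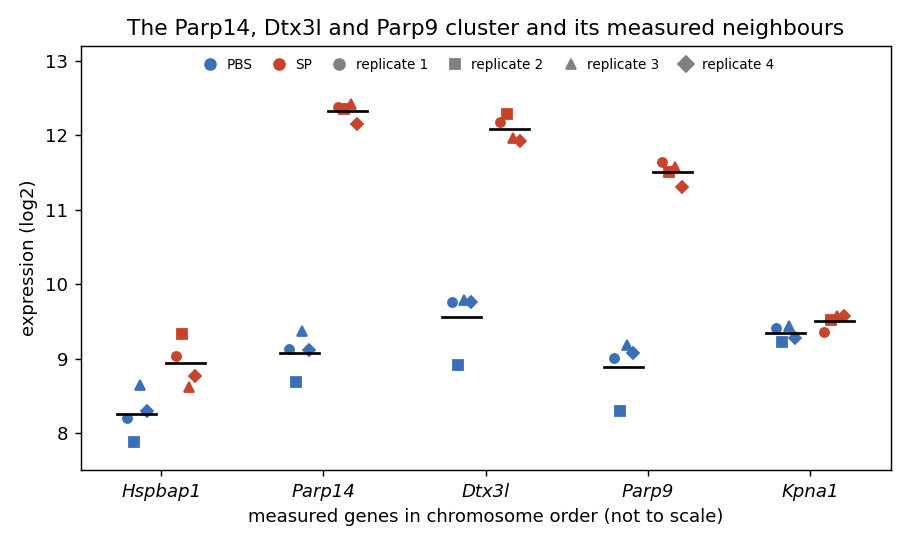
Expression (log2) of Parp14, Dtx3l and Parp9 and of the nearest measured gene on either side, in chromosome order and not to scale, with PBS in blue, SP in red, 1 symbol per replicate and black lines at the group means. The groups are far apart in the 3 cluster genes, while Kpna1 overlaps and Hspbap1 overlaps at 8.62 to 8.65.

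Promoter sequence was examined for members with a window in the RefSeq table (GRCm38.p6), which reaches from 250 bases before the annotated start to 50 bases after it. Windows were held for 6 members, namely Dtx3l, Parp11, Parp12, Parp8, Parp1 and Parp2, 7 windows in all; Parp9, Parp14 and Parp10 had none. Motifs known from interferon-induced genes were searched on both strands, the interferon-stimulated response element written as GAAANNGAAA and the gamma-activated site written as TTCNNNGAA. Over all 32851 windows, 3.44% held the first motif and 8.3% the other. Among the members' windows 1 held either motif, and it held both: the upstream window of Parp11. The windows of Parp11 and of Dtx3l are shown because both genes rose, by 2.07 and 2.53 log2 units, while only the window of Parp11 has a match. Capitals mark the matched letters.
Parp11, chr6:127446590-127446889, plus strand: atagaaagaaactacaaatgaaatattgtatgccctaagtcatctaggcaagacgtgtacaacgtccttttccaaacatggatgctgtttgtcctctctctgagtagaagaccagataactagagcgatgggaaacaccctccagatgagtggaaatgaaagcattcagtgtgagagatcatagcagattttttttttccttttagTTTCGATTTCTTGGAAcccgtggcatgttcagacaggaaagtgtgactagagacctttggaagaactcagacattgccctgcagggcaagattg
Dtx3l, chr16:35938978-35939277, minus strand: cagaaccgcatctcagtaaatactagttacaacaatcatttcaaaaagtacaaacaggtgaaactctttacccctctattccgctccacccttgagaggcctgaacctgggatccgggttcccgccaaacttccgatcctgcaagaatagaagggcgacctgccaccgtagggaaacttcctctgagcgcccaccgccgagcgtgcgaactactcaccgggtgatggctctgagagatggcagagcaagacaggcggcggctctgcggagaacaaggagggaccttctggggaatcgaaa

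In the Parp11 window TTTCGATTTC, the response element read on the other strand, spans -44 to -35 relative to the start, and TTCTTGGAA, the gamma-activated site, spans -37 to -29, so the matches share 3 bases. The other windows of the members, among them the downstream window of Parp11 and those of Parp12, Parp8, Parp1 and Parp2, held neither set of letters. Of the 12 interferon receptor and signalling genes, 11 had a window, of which 1 held the response element and 3 held the gamma-activated site. A match describes letters and not a bound site, and a window without one says nothing of what binds there.

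Other genes of ADP-ribose biology were described by lists. Of 8 other PARP family members, 3 rose, 4 fell and 1 did not pass the test, with a median of 0.25 log2 units. Zc3hav1, the zinc-finger antiviral protein, rose by 1.23 log2 units (SE 0.21, adjusted p = 0.00215 by limma), the only one of the list past 2-fold. Parp4, the vault PARP, rose by 0.77 (SE 0.10, adjusted p = 0.000409 by limma). The third rise, Parp3, was 0.74 (adjusted p = 0.029 by limma), with groups that overlapped. Its call was lost in the methods' t-test (adjusted p = 0.061). It was also lost in limma without PBS replicate 2 or 4 or SP replicate 1, 2 or 4 (adjusted p from 0.063 to 0.0733). The falls were small, with Parp16 at -0.59 (adjusted p = 0.0316 by limma) and Parp6 at -0.38 (adjusted p = 0.0429 by limma). All 4 falls were lost when arrays were centred, where 4 genes rose and none fell, and those of Tnks and Tnks2 remained under another quantile normalization. Tnks was at -0.24 as deposited and at 0.04 after centring, and its call was lost without PBS replicate 1, 2 or 3 or SP replicate 2 (adjusted p from 0.0621 to 0.0742). The calls of Parp16 and Parp6 were also lost in the methods' t-test (adjusted p = 0.0617 and 0.0663). Leaving out PBS replicate 1, 2 or 4 or SP replicate 1 ended the call of Parp16 (adjusted p from 0.063 to 0.0828), and leaving out any PBS sample or SP replicate 3 or 4 ended that of Parp6 (adjusted p from 0.053 to 0.0921).

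Enzymes that remove ADP-ribose did not move in 1 direction. Of 8 listed, 7 had a row, 2 rose, 2 fell and 3 did not pass, none of them reached 2-fold, and the median was -0.10. The median turned positive after centring (0.19) and under another quantile normalization (0.32). Adprh, which removes ADP-ribose from arginine, rose by 0.92 log2 units (SE 0.26, adjusted p = 0.0199 by limma), and this call was lost without PBS replicate 1 (0.89, adjusted p = 0.0527). Parg, which cuts poly(ADP-ribose) chains, rose by 0.44 (SE 0.13, adjusted p = 0.027 by limma), and this call was lost without PBS replicate 1, 2 or 4 or SP replicate 1 or 2 (adjusted p from 0.0517 to 0.0725). The macrodomain hydrolases Macrod2 and Macrod1 fell by 0.61 and 0.49 on the log2 scale (adjusted p = 0.00828 and 0.00206 by limma), and neither call held after the arrays were centred (adjusted p = 0.0569 and 0.0813). Macrod2 had 3 rows that disagreed, the others being at 0.21 (adjusted p = 0.0628) and 0.10 (adjusted p = 0.336).

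Partners of Parp1 and Parp2 in the repair of single-strand breaks also split, with 2 of 8 higher, 3 lower, 3 not called and a median of -0.34, which was -0.06 after centring and 0.07 under another quantile normalization. Chd1l, a chromatin remodeller that poly(ADP-ribose) switches on, fell by 1.32 on the log2 scale (SE 0.19, adjusted p = 0.000746 by limma). Aptx, which clears blocked strand ends, rose by 0.75 (SE 0.12, adjusted p = 0.00137 by limma). Hpf1, the cofactor that directs Parp1 and Parp2 to serine, rose by 0.26 (adjusted p = 0.0388 by limma), and this call was lost without any 1 PBS sample or without SP replicate 1 or 4 (adjusted p from 0.0658 to 0.0918). Xrcc1, Lig3 and Polb, the core of the pathway, stood at -0.28, -0.20 and -0.40 and did not pass, and all 3 were above 0 under another quantile normalization, Lig3 also after centring. Polb passed without SP replicate 4 (-0.51, adjusted p = 0.0456 by limma).

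NAD+ is the substrate of every PARP enzyme. Of 11 genes of its synthesis and use, 4 rose, 3 fell and 4 did not pass, with a median of 0.11. Centring gave 6 rises and 1 fall with a median of 0.39, and another quantile normalization gave 3 and 1 with a median of -0.05. Nampt, the rate-limiting enzyme of NAD+ salvage, rose by 1.60 log2 units (SE 0.14, 3.03-fold, adjusted p = 5.79e-05 by limma), from 11.25, 11.05, 11.57 and 11.54 in PBS to 13.05, 12.94, 13.07 and 12.75 in SP. Cd38, which breaks NAD+ down, rose by 1.07 (SE 0.29, 2.10-fold, adjusted p = 0.0195 by limma), with SP samples spread from 10.63 to 12.13. Naprt, which makes NAD+ from nicotinic acid, fell by 0.58 (adjusted p = 0.00201 by limma), and Nmnat2, which acts at a late step of synthesis, fell by 0.51 (adjusted p = 0.0462 by limma). The call of Nmnat2 was lost in the methods' t-test (0.0807), under both other scalings (0.241 and 0.254) and without PBS replicate 1 or 2 or SP replicate 1, 2 or 4 (adjusted p from 0.0582 to 0.115).

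Of the 4 deltex relatives of Dtx3l, 3 had a row. Dtx4 rose by 1.98 log2 units (SE 0.08, adjusted p = 3.33e-06 by limma), from 8.28 ± 0.12 (SD, n = 4) to 10.26 ± 0.06 (SD, n = 4), and Dtx2 by 1.08 (SE 0.15, adjusted p = 0.000628 by limma). Dtx3 differed by -0.79 and did not pass (adjusted p = 0.0517 by limma), but passed with PBS replicate 2 and SP replicate 3 both left out (-0.34, adjusted p = 0.0216). Among the 12 interferon receptor and signalling genes, 10 rose, 1 fell and 1 did not pass, with 7 rises past 2-fold and a median of 1.26 log2 units. Stat2 rose by 2.79 (SE 0.17, adjusted p = 1.35e-05 by limma) and Irf7, a transcription factor for type I interferon genes, by 2.38 (SE 0.36, adjusted p = 0.00101 by limma). Ifngr1, the ligand-binding chain of the interferon gamma receptor, fell by 0.57 (adjusted p = 0.00958 by limma), and lost its call when arrays were centred (-0.29, adjusted p = 0.114).

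**Figure D5:**
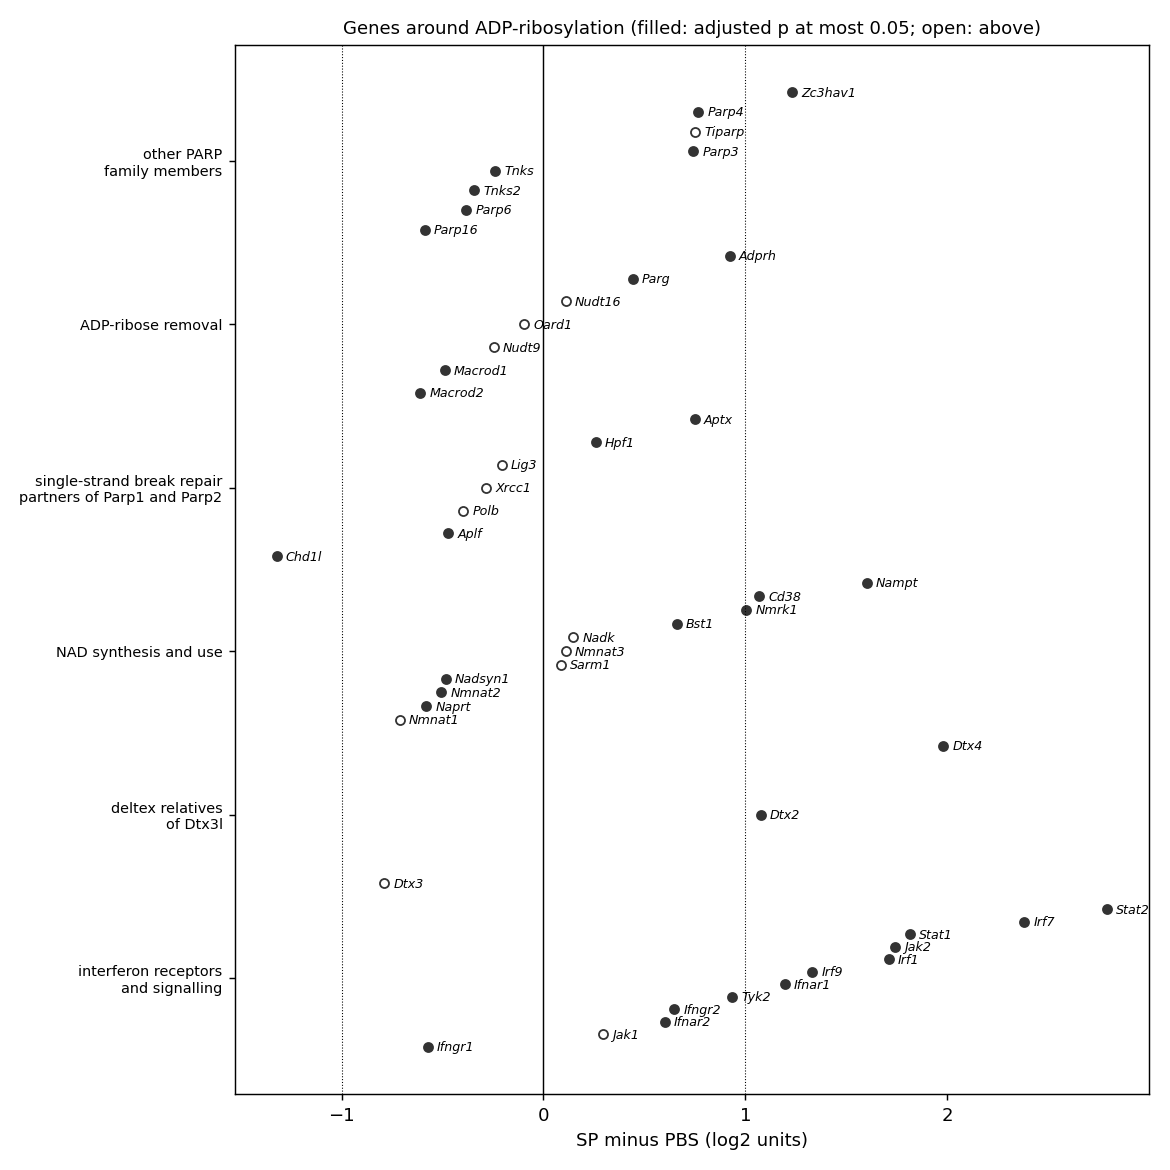
Difference between SP and PBS in log2 units for the genes of the 6 lists, with 1 gene left out and 1 point per gene (n = 4 per group), filled where the adjusted p by limma was at most 0.05 and open where it was above; dotted lines mark a 2-fold difference. Most points of the first 4 lists lie within 1 log2 unit of 0, on both sides, while 10 of 12 interferon receptor and signalling genes are filled and to the right of 0.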

How the data were processed

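The authors processed the arrays by robust multi-array averaging, with background, GC content and probe sequence correction, quantile normalization and median polish, and deposited log2 values per gene or transcript. The submitters' processing notes name Affymetrix Expression Console, RMA and Partek. Quantile normalization makes values relative within an array. The 24625 rows were named through a RefSeq gene table of mouse (GRCm38.p6), and 19915 rows (80.9%) received a symbol. The highest-mean row stood for a symbol.

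SP and PBS (4 arrays each, from the sample titles) were compared with limma 3.58.1 in R 4.3.3 (lmFit, eBayes, two-sided, no covariates) with Benjamini-Hochberg adjustment over all rows. Calls used an adjusted p of 0.05 and, where stated, 2-fold. The methods' t-test is a one-way analysis of variance per row. Named were all members, measured neighbours, and up to 2 rises and 2 falls per list among called genes. The 5 genes most like the Parp9 cluster by each measure were also named. Values of Parp3, Tnks, Tnks2, Xrcc1, Lig3, Polb, Dtx3 and Kpna1 were added for context. The result of 1 list gene is counted but not reported here. The members and lists were chosen with earlier results of these data known. Scripts were tested on simulated data; sequences and figures used Python 3.11.15.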

Additional observations from a re-analysis of the deposited data

Results flagged for a closer look

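Of 58 groups of 4 samples examined for a value far from the others, 2 held one; chance gives about 1 in 20 such groups. Dtx3l in PBS replicate 2 stood at 8.91 log2 units, below the other 3 PBS samples, of which the nearest was at 9.76, so that the gap made up 0.963 of the range of the group; the limit used was the critical value of Dixon's test for 4 samples. Without PBS replicate 2, Dtx3l rose by 2.31 log2 units (adjusted p = 1.44e-05 by limma). Cd38 in PBS replicate 1 stood at 10.46, above the other PBS samples, of which the nearest was at 10.22, with a gap of 0.884 of the range.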

How the results depend on the processing

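No result on the members changed direction under 16 alternative settings, or 15 for the fits relative to other genes, where centring cancels, or under 1 alternative chosen after seeing the data, which left out PBS replicate 2 and SP replicate 3 together. All 8 members kept an adjusted p of at most 0.0497, the highest being that of Parp2 without SP replicate 1. At 2-fold the count of members was 6 or 7 under all of them, and 6 to 7 with 1 sample left out. Parp1 was the member lost, with array weights (-0.94), both other scalings, without SP replicate 3 and without both samples. The count over all rows lay between 3872 and 4657, and with 1 sample left out between 3982 and 4657. All 6 interferon-related members exceeded Parp1 and Parp2 throughout, and 2 to 4 members differed from Parp9.

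Centring the arrays on their medians moved the median of all rows from 0.10 to 0.38 and the share of rises among rows called at 2-fold from 36.1% (1568 higher, 2773 lower) to 55.6% (2375 and 1896); another quantile normalization gave 46.1% (1878 and 2198). With the replicate number as a replicate block, 7 members and 4324 rows were called, and Parp9 had an adjusted p of 0.00052. Deviations of same-numbered samples correlated at 0.0156, 0.0304, 0.35 and -0.274, so the number is not taken as a pairing. The number of arrays limits the precision, and Parp8 could not be compared.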

Other observations

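Of the nearest measured genes beside the members outside the Parp14 cluster, 4930599N23Rik differed most between SP and PBS. It has no gene between it and Parp12 in the RefSeq table and rose from 5.14 ± 0.07 (SD, n = 4) to 10.11 ± 0.34 (SD, n = 4), by 4.97 log2 units (adjusted p = 8.31e-07 by limma). Tbxas1, the nearest measured gene on the other side of Parp12 with 6 genes between, differed by -0.74 and did not pass (adjusted p = 0.0728 by limma). Tbxas1 passed without PBS replicate 2 (-0.96, adjusted p = 0.0262) and without SP replicate 4 (-0.96, adjusted p = 0.0229). On the 2 sides of Parp11, the cell cycle gene Ccnd2 (9 genes between) rose by 0.92 and Cracr2a (1 gene between) fell by 1.02 on the log2 scale (adjusted p = 0.000211 and 0.00541 by limma). Near Parp10, Plec (1 gene between) rose by 0.52 (adjusted p = 0.019 by limma), and lost its call without PBS replicate 1 or PBS replicate 4 (adjusted p = 0.0508 and 0.0504). Grina, with no gene between, differed by 0.11 (adjusted p = 0.308 by limma). The nearest measured genes of Parp1, Stum and Lin9 (1 gene between each), and of Parp2, Rpph1 and Tep1 (no gene between), did not pass the test, with differences from -0.18 to 0.24. Stum, Lin9 and Grina passed when arrays were centred, and Rpph1 under another quantile normalization. Stum also passed without SP replicate 4 (0.29, adjusted p = 0.0317), and Tep1, at -0.11, turned to 0.29 without SP replicate 3 (adjusted p = 0.136) and to 0.40 without PBS replicate 2 and SP replicate 3 (adjusted p = 0.0221). Rpph1, the RNA of RNase P, is known to share a promoter region with Parp2.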
